A study of Mus musculus with 2 samples.

Results

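The Runx genes and Cbfb were examined in the DNase I hypersensitive sites (DHS) of mock-treated mouse B cells. The members are Runx1, Runx2, Runx3 and Cbfb, and a DHS was assigned to a member when it overlapped the gene body or the 50 kb on either side by at least 1 bp. This gave 43 of the 47542 DHS in the list, namely 16 at Runx1, 5 at Runx2, 11 at Runx3 and 11 at Cbfb. The members lie on different chromosomes, so no DHS could belong to more than 1 of them. The cells were splenic B cells of C57/Bl6 animals aged 8 weeks with the genotype Trp53+/+ and mock treatment, taken by magnetic selection for B220, a surface form of CD45. The data are 1 DNaseI library with a list of peaks and 1 input library, without replicates and without a second condition. How many animals gave the cells is not stated in the sources used here, and by the methods of the study dying cells were removed on a density gradient and the digest was chosen among several enzyme concentrations by its signal-to-noise ratio at selected regions. Each peak has a score of the authors' peak caller on a scale that is not stated, so scores are only ranked within this list, where they reached 619 with a median of 32.65. The depth of the library is unknown, and a site without a DHS is one where none was called.

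Runx proteins are transcription factors that bind DNA through the Runt domain. The product of Cbfb, core binding factor beta, does not contact DNA itself but joins any of the Runx proteins and strengthens their hold on DNA. Runx1 is required for the formation of blood stem cells and acts in B and T lymphocytes, Runx2 directs the formation of bone, and Runx3 acts in cytotoxic T cells, natural killer cells and sensory neurons. Each Runx gene is read from a pair of promoters, a distal one (P1) and a proximal one (P2), which give proteins with different first residues.

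The cell type named in the labels was checked against marker genes. All 7 B cell markers examined (Blk, Cd22, Cd79a, Cd79b, Cr2, Ms4a1 and Pax5) had a DHS in the promoter window, which runs from 5 kb upstream to 2 kb downstream of a transcription start site (TSS), with highest scores from 84.0 to 265. Of all 22254 protein-coding genes 57.1% had one. Of 8 T cell markers Cd5 alone had a promoter DHS, with a score of 97.7; Cd5 is also carried by a subset of B cells. Of 4 natural killer cell markers Klrb1c had one (26.0), and of 6 myeloid markers Adgre1, Elane and Itgam had one (18.2 to 42.5). Of 5 bone markers Bglap2 and Col1a1 had one, both with scores below the median of the list. Other cell types of the spleen may use the Runx genes as well, and their part in the DHS below was not tested.

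The promoters were examined first. P1 was taken as the group of annotated start sites around the most 5′ coding transcript, and P2 as the group further downstream whose transcripts have the longest coding sequence. Of the 7 promoters, 5 had a DHS, and each member had one at some promoter. Of all protein-coding genes 57.1% had one at any of their promoters, which is a share of genes and not of promoters. Runx1 had DHS at P1 and at P2, Runx2 and Runx3 had DHS at P2 and none at P1, and Cbfb had DHS at its sole promoter. The distances from P1 to P2 were 128738 bp at Runx1, 77979 bp at Runx2 and 31844 bp at Runx3. All 5 promoters kept a DHS when the window was narrowed to 1 kb on each side. All 5 also held a DHS at or above the median score. The shares of protein-coding genes with one at any of their promoters were 53.7 and 50.3% at these settings.

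**Figure D1:**
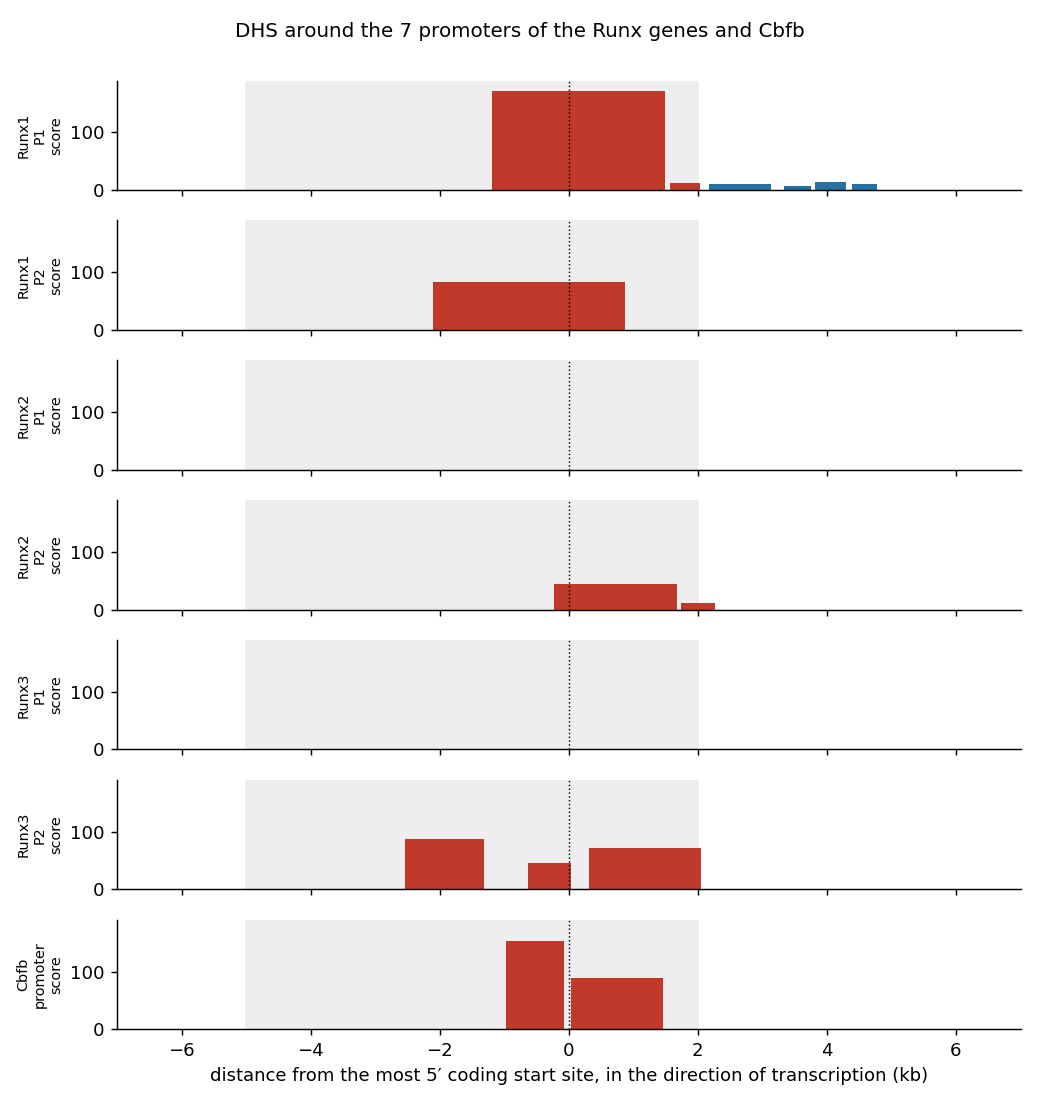
DHS within 7 kb of the most 5′ coding start site (dotted line) of each promoter, drawn to scale along the x axis in kb, with the authors' score as height. Grey marks the promoter window around that start site; red DHS count as promoter DHS and blue DHS do not. The panels of Runx2 P1 and Runx3 P1 are empty, and the start site of Cbfb lies in the space between its 2 DHS.

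The promoters differed in their content of CpG, the dinucleotide that is dense at most promoters of widely used genes. Over 1000 bp around the TSS the GC content and the observed to expected CpG ratio were 45.9% and 0.34 at Runx1 P1, 45.0% and 0.18 at Runx2 P1, and 52.1% and 0.36 at Runx3 P1. At P2 they were 62.0% and 0.86 for Runx1, 54.8% and 0.91 for Runx2 and 74.0% and 0.95 for Runx3, and at Cbfb they were 66.7% and 0.93. With limits of 55% GC and a ratio of 0.6, P1 was CpG-poor in all 3 Runx genes, and P2 was CpG-rich in Runx1 and Runx3 and missed the GC limit narrowly in Runx2. The 120 bases upstream of the most 5′ start site of 6 of the promoters are shown to let this be seen, 5′ to 3′ on the coding strand of the gene, with CpG in capitals (mm9). None of them overlaps an annotated exon.
Runx1 P1 (chr16:92826312-92826431, minus strand): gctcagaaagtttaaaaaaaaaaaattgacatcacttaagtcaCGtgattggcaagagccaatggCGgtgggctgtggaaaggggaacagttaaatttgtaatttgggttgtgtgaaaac
Runx2 P1 (chr17:44951747-44951866, minus strand): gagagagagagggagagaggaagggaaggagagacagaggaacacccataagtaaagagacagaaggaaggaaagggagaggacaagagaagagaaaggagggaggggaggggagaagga
Runx3 P1 (chr4:134676447-134676566, plus strand): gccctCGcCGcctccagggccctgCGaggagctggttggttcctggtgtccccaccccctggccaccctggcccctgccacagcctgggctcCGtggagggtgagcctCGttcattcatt
Runx1 P2 (chr16:92697574-92697693, minus strand): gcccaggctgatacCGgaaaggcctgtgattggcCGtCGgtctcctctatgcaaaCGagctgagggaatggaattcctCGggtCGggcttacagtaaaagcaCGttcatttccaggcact
Runx3 P2 (chr4:134708291-134708410, plus strand): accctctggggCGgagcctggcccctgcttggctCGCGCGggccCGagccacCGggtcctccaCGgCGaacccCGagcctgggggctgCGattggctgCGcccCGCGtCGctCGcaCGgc
Cbfb (chr8:107694454-107694573, plus strand): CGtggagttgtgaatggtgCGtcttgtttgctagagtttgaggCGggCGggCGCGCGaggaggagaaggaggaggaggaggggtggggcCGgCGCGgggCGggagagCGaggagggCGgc

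In these stretches CpG occurred 2, 0 and 5 times at P1 of Runx1, Runx2 and Runx3, and 7 and 16 times at P2 of Runx1 and Runx3. Cbfb had 13. All 120 bases lay inside a DHS at Runx1 P1 and at P2 of Runx1 and Runx3, 39 did so at Cbfb, and 0 at P1 of Runx2 and Runx3. P1 of Runx1, which had a DHS, and P1 of Runx2 and Runx3, which had none, were all in the CpG-poor class.

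Among all genes 36% of the CpG-poor and 84.4% of the CpG-rich promoters had a DHS, each gene counted at its most distal coding promoter. The highest score in the window of Runx1 P1 was 172, which was higher than at 95.4% of all CpG-poor promoters and at 87.3% of those with a DHS. The highest scores at the CpG-rich promoters were 82.4 at Runx1 P2, 87.8 at Runx3 P2 and 154 at Cbfb, and these exceeded 29.2%, 32.7% and 71.3% of the CpG-rich promoters with a DHS. At Runx2 P2 the highest score was 45.2, above 28.7% of the CpG-poor promoters with a DHS. Within Runx1 the score of the CpG-poor P1 was also above the upper quartile of CpG-rich promoters with a DHS, 163, while that of P2 lay between their lower quartile of 75.6 and their median of 114.

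**Figure D2:**
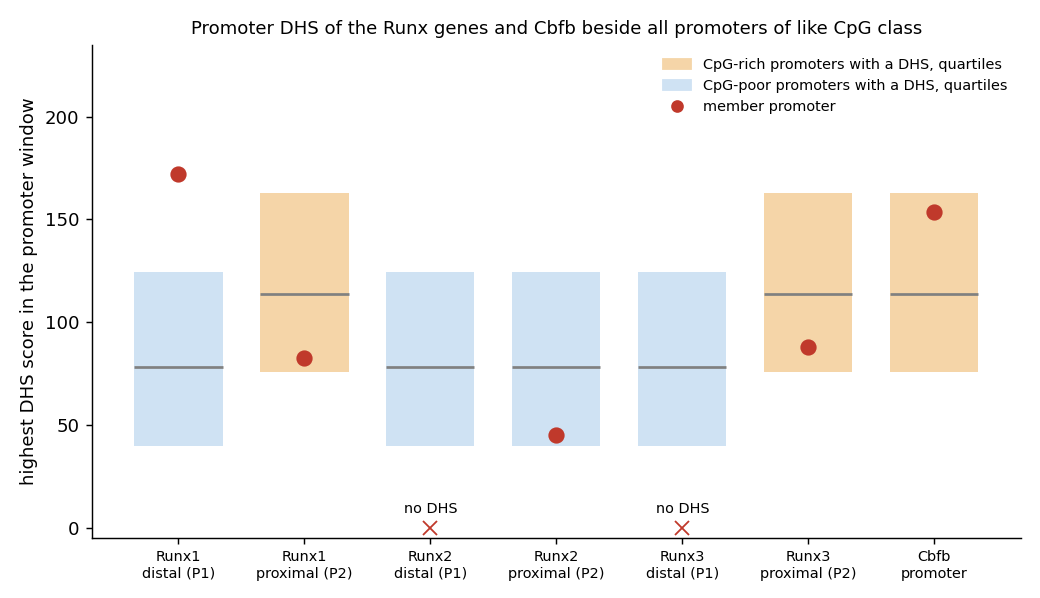
Highest DHS score in the window of each promoter (red points; a cross marks a promoter without DHS). Boxes span the quartiles, with the median as a line, of all CpG-rich (orange) or CpG-poor (blue) promoters with a DHS. Runx1 P1 at 172 is above the upper quartile of its class of 124, and Cbfb at 154 is the only other promoter above the median of its class.

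The absence of a DHS at P1 beside one at P2 was set beside other genes with a pair of promoters more than 7 kb apart. Of 3391 such genes, 17.3% had a DHS at both and 6.43% had one at the proximal promoter only, while 43.9% had one at the distal promoter only. The shares differed with CpG content. Among the 188 genes with a CpG-poor distal and a CpG-rich proximal promoter, like Runx1 and Runx3, 37.2% (Wilson interval 30.6 to 44.3) had a DHS at both and 37.8% (31.1 to 44.9) at the proximal one only. The combinations seen at Runx1 and at Runx3 were the most frequent among these genes, and their intervals overlapped almost fully. Runx2 is not like these genes, as its P2 missed the GC limit. For its DHS at the proximal promoter only, the share given here is the 6.43% of all pairs.

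Every P1 also held a pair of Runx binding words, which the selection of the genes did not use. The word TGTGGT, the core to which Runx proteins bind, was searched on both strands from 250 bp upstream to 50 bp downstream of the TSS. It occurred 2 times at Runx1 P1, 3 times at Runx2 P1 and 2 times at Runx3 P1, and it was absent from this stretch at each P2 and at Cbfb. At every P1 a pair of the words lay on the same strand with their starts 8 bp apart. The pairs and their surroundings, 30 bases each, are shown with the words in capitals. They read as the reverse complement on the coding strand.
Runx1 P1 (chr16:92826270-92826299, minus strand): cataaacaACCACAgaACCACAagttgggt
Runx2 P1 (chr17:44951532-44951561, minus strand): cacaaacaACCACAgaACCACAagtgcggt
Runx3 P1 (chr4:134676418-134676447, plus strand): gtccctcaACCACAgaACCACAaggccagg

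The pair was the same in all 3 genes over 14 bases, of which the words themselves fix all but the pair of bases between them. The bases ca just before the pair and ag just after it were also the same in all 3. The pair began 20 and 28 bp downstream of the TSS at Runx1, within the 5′ untranslated part of the first exon. At Runx2 it began 23 and 31 bp downstream, within the first coding exon of the annotation. At Runx3 it began 141 and 133 bp upstream of the annotated TSS. Only at Runx1 did it lie in a DHS, which covered all 30 bases. Of 22248 promoters searched in the same way, 15.2% held the word at least once, 1.80% held it at least 2 times, and 4 held a pair on 1 strand at this distance, which were the promoters of Runx1, Runx2, Runx3 and Card6. All 4 also shared the bases between the words. The distance was chosen after the pairs had been seen, so this count is a description, and a match does not show binding.

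Runx1 (ENSMUSG00000022952.9, chr16:92601712-92826311, minus strand) had the most DHS of the members within 50 kb, and most of them had low scores. The order turned with 100 kb flanks, where Runx1 had 17, Runx3 20 and Cbfb 19, and at or above the median score, where Cbfb had 9 and Runx3 7 against 4. With peaks closer than 500 bp merged, each of these genes had 10. Its 16 DHS had scores from 7.04 to 172 with a median of 13.4, and 4 of them reached the median of the list, against 50.1% of all DHS. The DHS over P1 (chr16:92824826-92827495, score 172, 2670 bp wide) reached from the upstream region into the first coding exon. The DHS over P2 (chr16:92696709-92699675, 82.4, 2967 bp) was the widest of the 43. In the upstream flank lay a DHS 47703 bp from P1 with a score of 45.8 and another 40782 bp from P1 with 17.9. Downstream of the gene lay 1 DHS with a score of 34.7, 34967 bp past its end. These flanks hold no TSS of another gene.

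P1 of Runx1 was followed by a run of weak DHS. From P1 into the first intron 6 DHS lay within 5.96 kb with gaps under 2 kb between neighbours (chr16:92821538-92827495). After the strong DHS at P1 their scores were 11.7, 10.8, 7.04, 13.4 and 9.67 in the direction of transcription. Of 32379 runs in the list, where a DHS without such a neighbour also counts as a run, 127 (0.392%) held as many DHS. The lowest of them exceeded only 0.459% of all DHS in score, and merging peaks closer than 500 bp lowered the count of Runx1 from 16 to 10.

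The second DHS of this run (chr16:92824281-92824741, score 11.7) held 14 Runx words in 461 bp, and 6 DHS in the whole list, or 0.0126%, held as many. A TG-rich stretch of 60 bases with 4 of these words is shown with the words in capitals, since this DHS holds 14 of the 35 Runx words in the DHS of Runx1.
Runx1 intron DHS (chr16:92824316-92824375, minus strand): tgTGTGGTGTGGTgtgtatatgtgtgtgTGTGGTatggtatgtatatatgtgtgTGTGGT

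The intron between P1 and P2 of Runx1 is known for an enhancer that is active in blood stem and progenitor cells. Of the other DHS in this 128.7 kb interval, the highest was at chr16:92801316-92802568, 23743 bp from P1, with a score of 29.4 and a width of 1253 bp. It was followed after a short gap by a DHS with a score of 17.8, 25051 bp from P1, which held 3 Runx words. Whether these are the known enhancer was not tested. Further DHS lay 10922, 38424 and 42676 bp from P1, with scores of 11.02, 13.38 and 13.00. In all, 9 DHS outside the promoter windows lay in the interval, or 6.99 per 100 kb (exact Poisson interval 3.20 to 13.3, for counting error only). The next 83.6 kb up to P2 held none, a stretch as long as which follows 8.73% of all DHS. Past P2 the gene body held 1 DHS, with a score of 11.6, in an intron 52026 bp from P2.

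**Figure D3:**
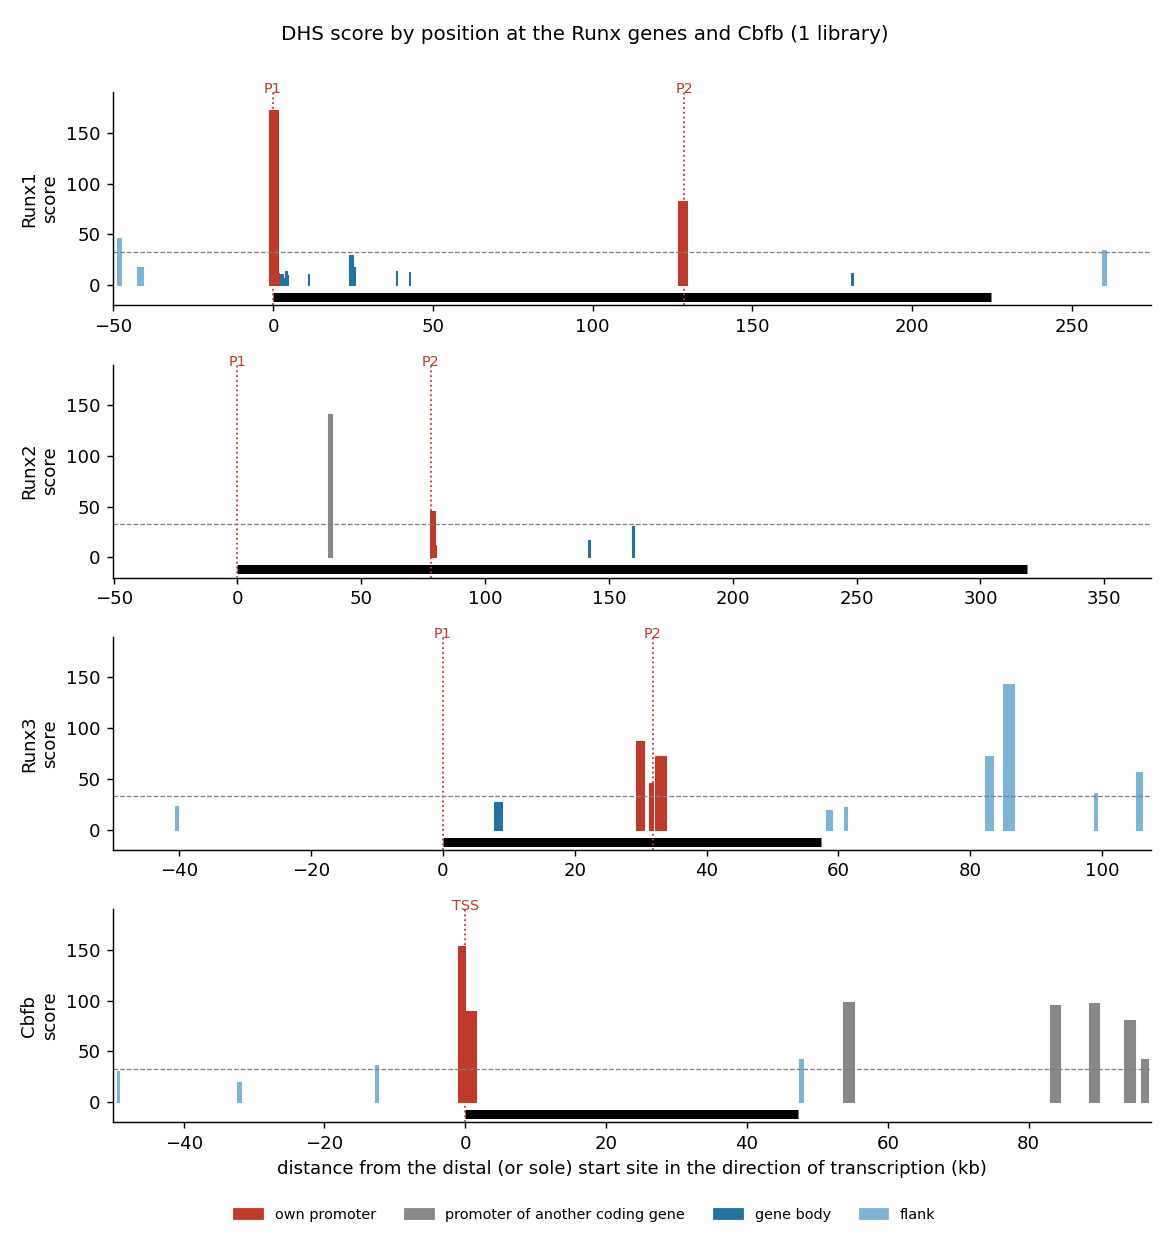
Score of each DHS in the gene body (black bar) and 50 kb on either side, against the distance in kb from P1 or the sole start site in the direction of transcription; the x scale differs between panels. Thin outlines keep narrow DHS visible, dotted lines mark start sites and the dashed line the median score of 32.65. The highest DHS of Runx1 (172) sits at P1, that of Runx2 (141) at the promoter of Supt3h, that of Runx3 (143) downstream of the gene, and that of Cbfb (154) at its promoter.

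Runx2 (chr17:44632936-44951746, minus strand, ENSMUSG00000039153.9 and ENSMUSG00000092206.1 joined) had the fewest DHS of the members within 50 kb. The order turned with 10 kb flanks, where Cbfb had 4 and Runx2 5. In the gene body alone Cbfb had 1, Runx3 4 and Runx2 5. The 5 DHS of Runx2 in a window of 418.8 kb had scores of 11.9, 45.2, 141, 17.3 and 31.3. The highest, at chr17:44913470-44914842, lay inside an intron of Runx2 but covered the start of Supt3h, a subunit gene of a histone acetyltransferase complex that runs in the opposite direction through P1 of Runx2. The DHS of P2 were at chr17:44871915-44873823, with a score of 45.2, and at chr17:44871338-44871860, with 11.9. Both overlapped coding exon sequence of Runx2 and the promoter window of the noncoding gene Gm10497 on the other strand, from which they cannot be told apart here. The remaining 2 were intronic, 63367 and 81396 bp downstream of P2, with scores of 17.3 and 31.3. No DHS lay closer to P1 than the one at Supt3h, 36734 bp away, and P1 was part of a stretch of 339.8 kb without a DHS. Of this stretch 36.9 kb lay in the gene body. Among gaps between neighbouring DHS 2.47% were as long. This is a share of gaps and not of bases, and a long gap covers more bases than a short one. Another gap of 220.7 kb covered 49.7% of the gene body at its 3′ end. Runx2 is the Runx gene of bone, and its P1 is known as the promoter used in bone-forming cells.

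Runx3 (ENSMUSG00000070691.4, chr4:134676567-134733905, plus strand) had its DHS at P2 and downstream of the gene. P2 carried 3 DHS within 4.59 kb. In the direction of transcription they were at chr4:134705870-134707093 with a score of 87.8, chr4:134707777-134708451 with 45.9, and chr4:134708731-134710462 with 72.3. The second covered the TSS, the first lay 1318 bp upstream of it in the intron, and the third began 320 bp downstream and overlapped coding sequence. The DHS nearest to P1 was 7767 bp downstream in the first intron, with a score of 27.2. Upstream of the gene 1 DHS, 40218 bp from P1, had a score of 23.1.

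The highest score at Runx3 was outside the gene. A DHS at chr4:134761484-134763161, 27579 bp past the end of the gene, had a score of 143, above 97.7% of the 24945 distal DHS, which overlap no promoter window, and it scored higher than each DHS of P2. Its neighbour at chr4:134758813-134760072, 24908 bp past the gene, scored 72.1, above 89.9% of distal DHS. The other 4 downstream DHS had scores of 19.4, 22.2, 36.0 and 57.1, and the last 2 of these lay inside Clic4, a chloride channel gene of the opposite strand whose 3′ end faces that of Runx3. The promoter of Clic4 had DHS up to a score of 197 but was outside the window. Which gene the downstream DHS belong to cannot be told from their position. The highest of them held 1 Runx word outside its central 300 bp, the longer form TGTGGTT, which is shown in capitals for its first 6 bases in the surrounding 60 bases.
Runx3 downstream DHS (chr4:134762711-134762770, plus strand): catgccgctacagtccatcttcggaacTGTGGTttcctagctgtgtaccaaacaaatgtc

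Cbfb (ENSMUSG00000031885.7, chr8:107694574-107741886, plus strand) had a strong promoter and an otherwise empty gene body. Its promoter carried a DHS at chr8:107693600-107694492, with a score of 154, and another at chr8:107694612-107696033, with 89.7. The TSS lay in the 119 bp between them, 82 bp from the upstream and 38 bp from the downstream DHS, so that in the list the start site itself was not covered. Both also lay in the promoter window of a U6 small nuclear RNA gene in the first part of Cbfb, from which they cannot be told apart here. The upstream DHS had a GC content of 46.9%, and the downstream one, over the first exon, had 64.6%. From there a stretch of 45.97 kb, 96.9% of the gene body, was without a DHS. At 122 bp past the end of the gene lay a DHS with a score of 42.6.

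Several DHS around Cbfb lay at promoters of other genes. Of the 11, 5 overlapped promoter windows of D230025D16Rik, B3gnt9-ps, Tradd, Fbxl8 and Hsf4, with scores from 41.9 to 98.4. Tradd is an adaptor of the receptors of tumour necrosis factor. The 3 upstream DHS, 12389, 31799 and 49142 bp from the TSS, had scores of 36.5, 19.2 and 30.6, and the promoter of Ces4a, a gene in that flank, had none. The median score of the 11 DHS was 80.4 (interval from order statistics 30.6 to 98.4), against 13.4 (11.02 to 34.7) at Runx1, and the intervals overlapped in part.

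To place the members among other genes, DHS were counted in the same way around all protein-coding genes. The density was 4.93 per 100 kb at Runx1 (Poisson interval 2.82 to 8.00), 1.19 at Runx2 (0.388 to 2.79), 6.99 at Runx3 (3.49 to 12.5) and 7.47 at Cbfb (3.73 to 13.4). The median of all genes was 3.39, with quartiles at 0.661 and 6.92. Lower densities were found in 62.7, 31.5, 75.4 and 77.4% of genes, in the same order. For Cbfb this fell to 49.1% in the gene body alone, which held 1 of its 11 DHS, and for Runx1 to 42.9% with DHS at or above the median score. The intervals of Runx1, Runx3 and Cbfb overlapped one another. That of Runx1 held the median, and the lower ends of those of Runx3 and Cbfb were just above it. The interval of Runx2 lay below the median and ended just below that of Runx1. In the gene body alone the median of all genes was 2.31 per 100 kb. The body intervals of Runx2 (0.509 to 3.66), Runx3 (1.90 to 17.9) and Cbfb (0.0535 to 11.8) held it, and that of Runx1 (3.08 to 9.90) lay above it. For Runx2 46.4% of genes had a lower body density. The 16 DHS of Runx1 were more than in 94.1% of genes, but its gene body of 224.6 kb was also longer than in 96.4%.

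**Figure D4:**
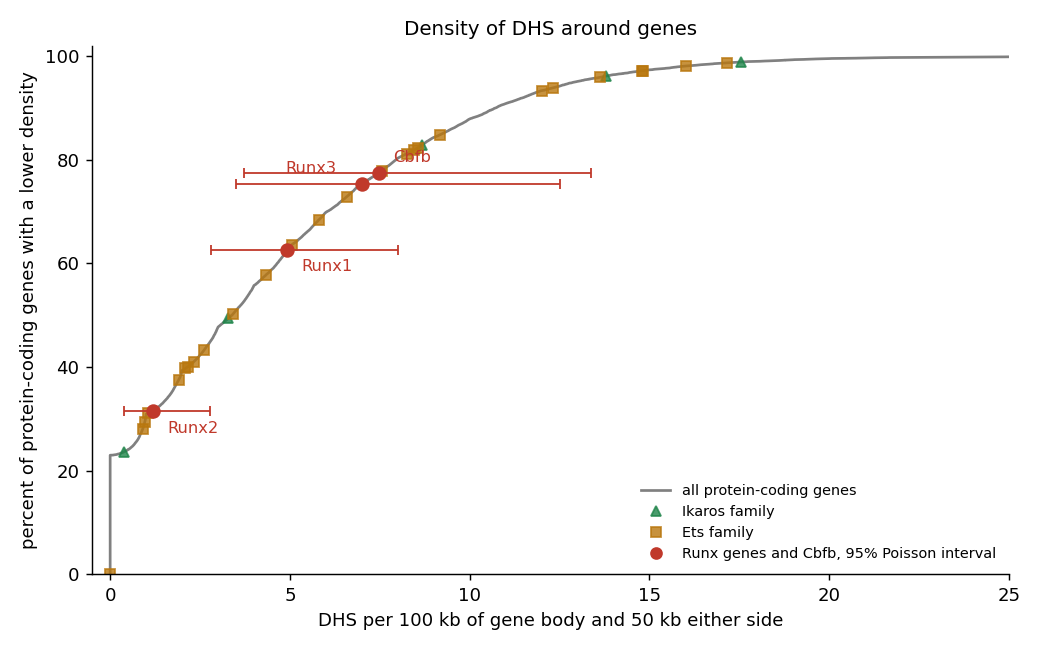
Percent of protein-coding genes with a lower density, against DHS per 100 kb of gene body and 50 kb on either side. Red points are the members with 95% Poisson intervals, triangles and squares the Ikaros and Ets families and the grey line all genes. Runx2 at 1.19 lies in the lower part of the curve and the other members at 4.93 to 7.47 in its middle and upper part.

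The Ikaros and Ets families, which also hold transcription factors of lymphocytes, were set beside the members. In the Ikaros family density ran from 0.393 at Ikzf2 to 17.6 at Ikzf1 with a median of 8.68 over 5 genes. In the Ets family it ran from 0 at Ehf to 17.1 at Ets1 with a median of 6.19 over 26 genes. All 4 members were inside both ranges, as most protein-coding genes are, and a range widens with the number of genes. No test between the families was made, as the data hold 1 library.

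Scores of the 43 DHS were described by class. The 16 that overlapped any promoter window had a median of 85.1 (45.2 to 98.4), beside 53.3 for all promoter DHS of the list. The 27 distal ones had a median of 22.2 (13.4 to 34.7), beside 24.3 for all distal DHS. Promoter DHS made up 16 of the 43, against 47.5% of all DHS. Each interval held the median of all DHS of its class.

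Words of B cell factors were searched in the central 300 bp of each DHS. The Runx word TGTGGT was in 13 of 43 DHS (30.2%, Wilson interval 18.6 to 45.1), against 20.6% of all DHS, a share inside that interval. By gene it was in 8 of 16 DHS at Runx1, 0 of 5 at Runx2, 2 of 11 at Runx3 and 3 of 11 at Cbfb. The longer form TGTGGTT, which contains it, was in 11.6% (5.07 to 24.5) against 6.79%. The E2A word CAGCTG was in 10 DHS (23.3%, 13.2 to 37.7) against 17.5%, the CTCF word AGGGGGC in 4 (9.30%) against 8.07%, and the PU.1 word GAGGAAGT in 3 (6.98%) against 3.61%. The EBF word CCCNNGGGA and the ETS-IRF word GGAANNGAA were in 2 each (4.65%) against 6.62 and 9.32%, and the KLF word GGGGCGGGG in 1 (2.33%) against 3.83%. The octamer ATGCAAAT, the ETS word CCGGAAGT and the p53 element were in 0 of 43, which allows up to 6.98% by a limit of 3 DHS and up to 8.20% by the Wilson interval, while 1.64, 1.68 and 0.329% of all DHS held them. The p53 element is a pair of adjoining decamers, searched here with at most 2 mismatches, and it was not found in the full length of the 43 DHS either. For each of these words the share of all DHS was inside the Wilson interval of the members.

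**Figure D5:**
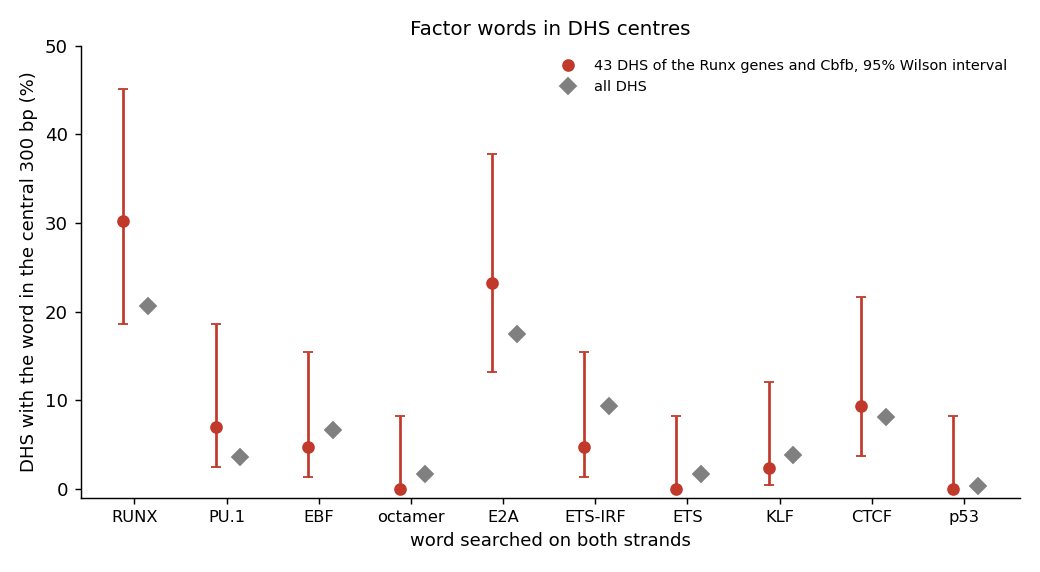
Percent of DHS with each word in the central 300 bp, for the 43 DHS of the members (red, with 95% Wilson intervals) and for all DHS (grey diamonds). The diamond lies inside the red interval for every word, the RUNX word included (30.2 against 20.6%).

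Genes whose products act with Runx proteins mostly had a promoter DHS. Of 12 corepressor genes 11 had a promoter DHS (91.7%, Wilson interval 64.6 to 98.5), of 10 coactivators and modifiers 9 (90.0%, 59.6 to 98.2) and of 10 partner transcription factors 9, against 57.1% of all protein-coding genes. The missing ones were Runx1t1, Wwtr1 and Gata1. Among CpG-rich promoters of all genes the share was 84.4%, which is inside these intervals. The lists were not compared within a CpG class. Runx1t1, known as ETO from its fusion with RUNX1 in leukaemia, had no DHS in its whole window, whereas its relatives Cbfa2t2 and Cbfa2t3 had promoter DHS up to 108 and 210. The Groucho-type corepressors Tle1, Tle2, Tle3 and Tle4 had highest scores of 166, 145, 138 and 147, while their shorter relative Aes had 22.6. Among the other corepressors the histone deacetylase scaffold Sin3a had 376. Among coactivators the acetyltransferase genes Ep300, Crebbp, Kat6a and Kat6b had 140, 122, 73.1 and 312, and Yap1, the effector of Hippo signalling, had 27.3. Among partner factors Pax5 had 265, Fli1 185, Ets1 171, Lmo2 158, Ebf1 142, Spi1 138, Myb 94.2, Cebpa 57.3 and Tal1 40.5, and Gata1, a factor of erythroid cells, had no promoter DHS. With the narrower promoter window the shares of the lists were the same, beside 53.7% of all protein-coding genes. Counting DHS at or above the median score alone, they were 83.3% for corepressors, 80% for coactivators and 90% for partner factors, beside 50.3% of all protein-coding genes.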

How the data were processed

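DNase I digested DNA of splenic B cells was sequenced by the authors, and the deposited file lists peaks with a chromosome, start, end, a name of the MACS kind and a score per peak, which the authors took from their caller and whose scale is not stated. The submitters' processing notes name BWA 0.6.2, SAMtools and the build mm9. The caller's version and settings for this library are not given in the sources used here, nor is the use of the input library, which was not analysed here. Starts were read as counted from 0 and are printed counted from 1.

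Genes and start sites were taken from GENCODE release M1 and sequence from NCBI build 37, which is mm9. The statistics cover 47474 DHS on chromosomes 1 to 19 and X, and 1 of these passed the end of its chromosome. Overlapping records of 1 symbol were joined. Start sites closer than 2 kb were grouped, and P2 had to lie more than 5 kb from P1. Kat6a, Kat6b, Kmt2a, Spi1 and Adgre1 were matched by their older symbols. Words were searched with Python 3.11.15 (numpy 2.4.6, scipy 1.17.1) on both strands, and the code was tested on simulated peaks and sequences. Named are the members, their promoter DHS, the 3 highest other DHS each, neighbours with a promoter DHS, the lowest and highest genes of the Ikaros and Ets families, and cofactor genes that lack a promoter DHS where fewer than 6 do; Card6, Clic4, Ces4a, neighbours without a promoter DHS, markers and cofactors with one and the other DHS were named after their values were seen.

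With 1 library there is no test and no p-value. Intervals are at the 95% level and cover counting error only. The members and lists were chosen with earlier results of these data known. Alternatives were other flanks, a score limit, merged peaks, peak centres, a narrower promoter window and other word rules. 1 marker gene and 1 promoter sequence are not reported here.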

Additional observations from a re-analysis of the deposited data

How the results depend on the processing

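No paired analysis was possible because there is 1 DNaseI library. The number of DHS at Runx1 fell from 16 to 4 at or above the median score and to 10 with peaks closer than 500 bp merged, and at Runx2 from 5 to 2 at or above the median score. At Runx3 it was 6 with flanks of 10 kb, 20 with 100 kb, 4 in the gene body alone and 7 at or above the median score, in place of 11. At Cbfb it was 4, 19 and 1 with flanks of 10 kb, 100 kb and none, in place of 11. The percent of genes with a lower density was 42.9 for Runx1 at or above the median score, and 46.4 for Runx2 and 49.1 for Cbfb in the gene body alone. The median score of the members' DHS was 34.67 and fell to 17.8 in the gene bodies alone. The share with a Runx word was 46.5% over whole DHS, where all DHS had 45.7%, and 11.6% with the longer word. The causes were not tested beyond the smaller or larger stretch that each setting covers. The remaining 32 values stayed within their interval or within 1.5 times. The depth is unknown and limits each statement that a DHS is absent.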

Other observations

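The neighbours of the members differed in promoter DHS. The noncoding genes Gm16225 and Gm16224 lie on the strand opposite to Runx3, the former just upstream of P1 and the latter in the first intron. They had no promoter DHS, nor had Gm16801 in Runx1 or 9530072K05Rik and Gm16317 in Runx2. Of the coding neighbours, Supt3h at Runx2 had a promoter DHS of 141, Clic4 at Runx3 one of 197 and D230025D16Rik at Cbfb one of 98.4, while Ces4a at Cbfb had none.

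Over whole DHS, which differ in width, 45.7% of all DHS and 46.5% of those of the members held a Runx word. The words numbered 35 in 10 of 16 DHS at Runx1, 1 in 1 of 5 at Runx2, 5 in 5 of 11 at Runx3 and 6 in 4 of 11 at Cbfb, and the difference between the members was not tested. Without the intronic DHS with 14 words, Runx1 had 21. Of these 21, 7 were in the DHS over P1.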
